A study of Homo sapiens with 6 samples.

Results

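LIF, IL11 and IL6, cytokines that signal through gp130, were measured together with their receptor chains LIFR, IL6R, IL6ST and OSMR, the transcription factor STAT3 and the feedback inhibitor SOCS3. These are 9 of the 50868 genes with values in the data. LIF and IL11 were chosen by their measured changes against the control hairpin, which differed in direction between the cell lines, and the other 7 genes were added for their place in the pathway with their values known. The values of the 9 genes are therefore given as a description, with no test.

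The study used UM-UC-3 and 5637, 2 established human bladder cancer cell lines, and knocked down the long noncoding RNA LNMAT1 to look for genes that depend on it. Each line carried a lentiviral control hairpin (sh-NC) or 1 of 2 LNMAT1 hairpins, named sh-LNMAT1#1 and sh-LNMAT1#2. All 6 populations, controls included, were exposed to lentivirus for 24 h and kept under puromycin for 2 weeks as stable lines. UM-UC-3 was grown in DMEM and 5637 in RPMI 1640, so medium and line cannot be told apart. Each of the 6 groups held 1 library, so single-library differences carry no replicate error. Values are FPKM, fragments scaled to gene length and library depth, so levels can be compared between genes per length. Depth came to 22439000 fragments for the library labelled 5637 sh-NC, 20803000 and 19375000 for 5637 sh-LNMAT1#1 and #2, and 24711000, 22279000 and 22948000 for UM-UC-3 sh-NC, #1 and #2.

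The identifier for LNMAT1 is ENSG00000244306, with the symbol LINC01296, at 19284653 to 19337730 of chromosome 14 (GRCh38). The UM-UC-3 libraries had LINC01296 at 14.2 FPKM for sh-NC, 6.20 FPKM for sh-LNMAT1#1 and 6.70 FPKM for sh-LNMAT1#2. The library labelled 5637 sh-NC had 11.7 FPKM, and 5637 sh-LNMAT1#1 and #2 had 4.70 and 2.14 FPKM, so the target was lower in each of the 4 hairpin libraries than in the control named for its line. GENCODE 29 names this locus DUXAP10, a transcribed processed pseudogene with near copies elsewhere in the genome, and its level is uncertain for that reason.

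The library labelled 5637 sh-NC stood apart from the other 5637 libraries. Over 12717 genes, given as a description since genes are not replicates, Pearson's r of log2(FPKM + 0.5) with this library was 0.985 for UM-UC-3 sh-LNMAT1#1, 0.922 for UM-UC-3 sh-NC and 0.933 for UM-UC-3 sh-LNMAT1#2, but 0.617 and 0.622 for 5637 sh-LNMAT1#1 and #2. EPCAM and CDH1, which encode epithelial adhesion proteins, were at 0.0104 and 0.00924 FPKM there and at 33.8 and 19.2 FPKM in 5637 sh-LNMAT1#1. ZEB1, a repressor of epithelial genes, reached 12.6 FPKM there, 12.5 in UM-UC-3 sh-NC and 0.0264 in 5637 sh-LNMAT1#1. Contrasts against the library labelled 5637 sh-NC are named as such, and contrasts between the other libraries are given as well.

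The cell-type markers were summed over each list. The 13 epithelial and urothelial markers summed to 424 and 558 FPKM in 5637 sh-LNMAT1#1 and #2, to 30.0 for the library labelled 5637 sh-NC and to 26.0, 26.0 and 32.5 for UM-UC-3 sh-NC, #1 and #2. KRT7, a simple-epithelium keratin, was the most abundant in the 5637 sh-LNMAT1 libraries (167 and 223 FPKM), and KRT18 in the other 4 libraries (15.9 to 25.2 FPKM). Uroplakins, which mark differentiated urothelium, were near 0 in all 6 libraries, with UPK1B listed at 0 in each and UPK2 at most 0.556 FPKM. The 5 mesenchymal markers summed to 364, 157 and 185 FPKM for UM-UC-3 sh-NC, #1 and #2, to 139 for the library labelled 5637 sh-NC and to 122 and 119 for 5637 sh-LNMAT1#1 and #2. VIM led this list in UM-UC-3 and in the library labelled 5637 sh-NC (103 to 332 FPKM), while FN1 led it in the 5637 sh-LNMAT1 libraries (110 and 102 FPKM). Of 5 leukocyte markers, CD3E was listed at 0 in all 6 libraries and PTPRC was at most 0.0108 FPKM. The list summed to 31.1 FPKM for the library labelled 5637 sh-NC, 1.41 and 1.23 for 5637 sh-LNMAT1#1 and #2 and 15.4, 29.4 and 13.0 for UM-UC-3 sh-NC, #1 and #2, nearly all of it CD68 in UM-UC-3 and in the library labelled 5637 sh-NC. The 5 fibroblast and endothelial markers summed to 8.50 and 6.82 FPKM in 5637 sh-LNMAT1#1 and #2, mostly COL1A1, and to at most 0.499 FPKM in the other 4 libraries, with DCN listed at 0 in 5 libraries. The part of these differences in the values below was not tested.

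gp130, encoded by IL6ST, is the signaling chain shared by the interleukin 6 family of cytokines. IL6 and IL11 first bind their own receptor chains and then recruit gp130, whereas LIF pairs gp130 with LIFR, and oncostatin M pairs it with LIFR or OSMR. The bound receptors activate JAK kinases, which phosphorylate STAT3, and STAT3 in turn induces SOCS3, which binds gp130 and dampens the signal. STAT3 activity is well known in epithelial cancers, those of the bladder included, and is set mostly by phosphorylation, which RNA levels do not measure.

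Promoter sequences were taken from RefSeq on GRCh38.p14 and matched 8 of the 9 genes in 11 windows of 250 bases before a start site, the other gene being LIF. Both strands were searched for a STAT motif (TTCNNNGAA), an AP-1 motif (TGANTCA) and an NF-kB motif (GGGNNNNNCC), factors known to act on cytokine genes. IL11 is shown as the gene with the widest range of levels, and LIFR as the 1 gene with STAT letters; capitals mark the AP-1 match in IL11 and the STAT match in LIFR, each sequence 5′ to 3′ on the minus strand of its gene.
IL11, chr19:55370464-55370713: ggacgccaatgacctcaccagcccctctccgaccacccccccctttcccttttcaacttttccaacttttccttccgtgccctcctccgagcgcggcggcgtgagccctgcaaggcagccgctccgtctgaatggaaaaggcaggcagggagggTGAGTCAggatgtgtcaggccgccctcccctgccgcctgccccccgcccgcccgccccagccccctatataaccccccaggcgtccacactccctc
LIFR, chr5:38595406-38595655: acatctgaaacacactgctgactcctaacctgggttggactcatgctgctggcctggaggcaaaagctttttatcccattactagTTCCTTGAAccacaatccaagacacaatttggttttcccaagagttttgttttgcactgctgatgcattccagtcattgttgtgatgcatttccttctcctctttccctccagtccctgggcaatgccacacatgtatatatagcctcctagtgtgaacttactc
The IL11 window ends at the base before the deposited locus and holds TGAGTCA with its first base at -96 from the start. The LIFR window lies inside the deposited locus, meets no annotated exon of GENCODE 29 and holds TTCCTTGAA at -165. Another of the 3 LIFR windows also held a STAT match, and neither of the 2 SOCS3 windows did. The STAT letters were in 6.57% of all 35116 windows and the AP-1 letters also in 6.57%. The NF-kB letters were in 54.4% of these windows and in at least 1 window of 7 of the 8 genes. That count is by gene, and LIFR and SOCS3 had more than 1 window in which to match. A match is a run of letters in a window, not a measured binding site.

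LIF (ENSG00000128342, chromosome 22 from 30240447 to 30246851) encodes leukemia inhibitory factor. In UM-UC-3, LIF stood at 44.8 FPKM under sh-NC, 101 FPKM under sh-LNMAT1#1 and 62.0 FPKM under sh-LNMAT1#2. In 5637, 123 FPKM was the level in the library labelled 5637 sh-NC, against 19.0 FPKM under sh-LNMAT1#1 and 40.7 FPKM under sh-LNMAT1#2. Both hairpin libraries lay above the control in UM-UC-3 and below the library labelled sh-NC in 5637, and both 5637 hairpin libraries lay below all 3 UM-UC-3 libraries. On the scale of log2(FPKM + 0.5), where changes of low genes come out too small, LIF differed from sh-NC by 1.17 and 0.46 with sh-LNMAT1#1 and #2 in UM-UC-3. Against the library labelled 5637 sh-NC the differences were -2.66 and -1.58. In bulk RNA, a different share of expressing cells and a different level per cell cannot be told apart.

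IL11 (ENSG00000095752, chromosome 19 from 55364389 to 55370463) encodes interleukin 11, which signals through gp130 after binding its own receptor chain. In UM-UC-3, IL11 stood at 7.60 FPKM under sh-NC, 72.0 FPKM under sh-LNMAT1#1 and 20.5 FPKM under sh-LNMAT1#2. The library labelled 5637 sh-NC held 81.4 FPKM, 5637 sh-LNMAT1#1 held 4.34 FPKM and 5637 sh-LNMAT1#2 held 19.1 FPKM. IL11 had the widest spread of the kept genes among the 9, with its highest level 18.8 times its lowest (16.6 times without the library labelled 5637 sh-NC), and the levels of 20.5 and 19.1 FPKM with sh-LNMAT1#2 nearly met across the lines. The log2 differences were 3.16 and 1.38 against sh-NC in UM-UC-3 and -4.08 and -2.06 against the library labelled 5637 sh-NC. Per length, IL11 stayed under LIF in all 6 libraries, from 0.170 of the LIF level in UM-UC-3 sh-NC to 0.711 in UM-UC-3 sh-LNMAT1#1. Its lowest value, in 5637 sh-LNMAT1#1, rested on 58.7 to 241 fragments, bounds set by its shortest transcript and the sum of its exons.

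IL6 (ENSG00000136244, chromosome 7 from 22725884 to 22732002), the name-giving cytokine of the family, was near the floor of these libraries. Among the UM-UC-3 libraries, IL6 was listed at 0 for sh-NC, 0.0915 FPKM for sh-LNMAT1#1 and 0.0533 FPKM for sh-LNMAT1#2. It was also at 0 in the library labelled 5637 sh-NC, whereas 5637 sh-LNMAT1#1 and #2 had it at 0.667 and 0.790 FPKM. The 5637 hairpin libraries thus lay above the other 4, but on 7.48 to 28.7 and 8.25 to 31.6 fragments. A floor of 3 fragments in the library labelled 5637 sh-NC is 0.248 FPKM for the shortest transcript. The listed IL6 values were 2.69 times that floor in 5637 sh-LNMAT1#1 and 3.18 times in #2. The UM-UC-3 hairpin values stood for 1.10 to 4.22 and 0.660 to 2.53 fragments, at or around the floor, and no fold is given. The bounds span transcript length only, and the floor allows for counting error only in the library at 0. Counting error in the hairpin libraries is not covered, nor is variation between cultures.

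**Figure D1:**
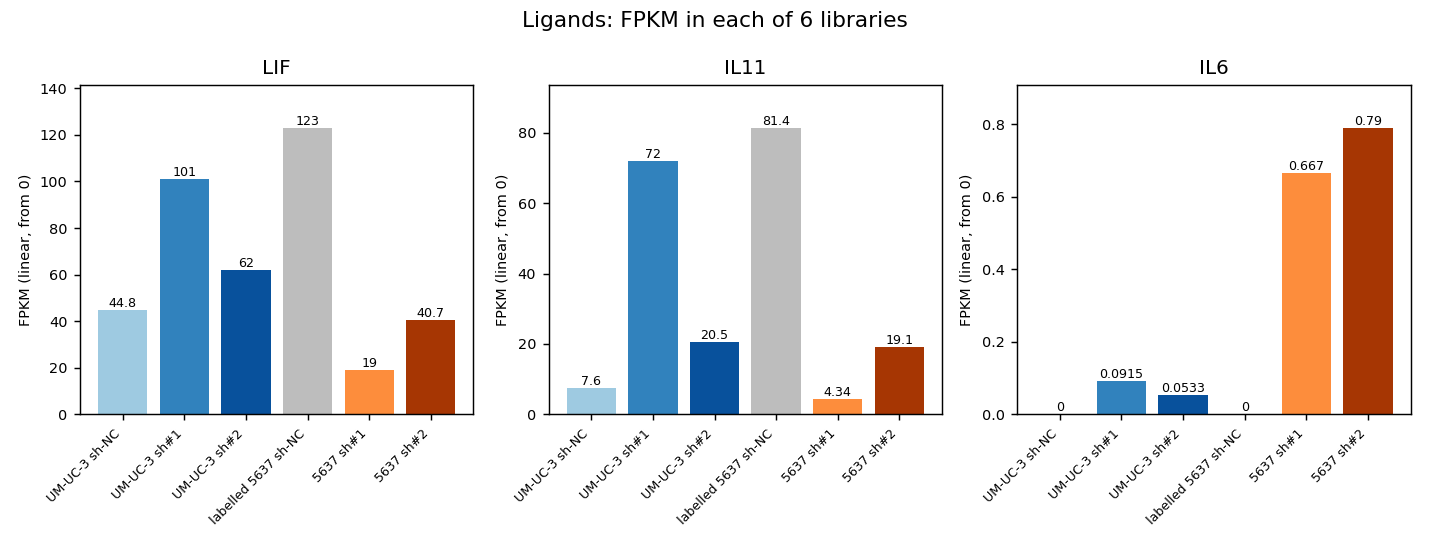
FPKM (linear axis from 0) of LIF, IL11 and IL6, 1 bar for each of the 6 libraries, with no error bars since each group is 1 library. LIF (123 FPKM) and IL11 (81.4 FPKM) were highest in the library labelled 5637 sh-NC, followed by UM-UC-3 sh-LNMAT1#1 (101 and 72.0 FPKM), and IL6 stayed under 1 FPKM throughout.

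LIFR (ENSG00000113594, chromosome 5 from 38474963 to 38608354) encodes the chain that pairs with gp130 for LIF. In UM-UC-3, LIFR stood at 1.78 FPKM under sh-NC, 2.26 FPKM under sh-LNMAT1#1 and 1.56 FPKM under sh-LNMAT1#2. In 5637, 1.70 FPKM was the level in the library labelled 5637 sh-NC, against 0.547 FPKM under sh-LNMAT1#1 and 0.652 FPKM under sh-LNMAT1#2. The 5637 hairpin libraries were low and did not overlap the other 4. In UM-UC-3 the hairpin libraries lay on either side of the control, with log2 differences of 0.28 and -0.14.

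IL6R (ENSG00000160712, chromosome 1 from 154405193 to 154469450) encodes the chain that binds IL6. In UM-UC-3, IL6R stood at 0.223 FPKM under sh-NC, 1.21 FPKM under sh-LNMAT1#1 and 0.515 FPKM under sh-LNMAT1#2. The library labelled 5637 sh-NC held 1.19 FPKM, 5637 sh-LNMAT1#1 held 2.18 FPKM and 5637 sh-LNMAT1#2 held 1.52 FPKM. The 5637 hairpin libraries were the highest, and UM-UC-3 sh-NC, on 2.90 to 35.5 fragments, the lowest. IL6R and IL6 did not reach a mean of 1 FPKM over the UM-UC-3 libraries, and LIFR and IL6 did not over the 5637 libraries, so each line kept 7 of the 9 genes.

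IL6ST (ENSG00000134352, chromosome 5 from 55935095 to 55994993) encodes gp130 itself. In UM-UC-3, IL6ST stood at 9.48 FPKM under sh-NC, 3.59 FPKM under sh-LNMAT1#1 and 7.67 FPKM under sh-LNMAT1#2. In 5637, 2.35 FPKM was the level in the library labelled 5637 sh-NC, against 3.45 FPKM under sh-LNMAT1#1 and 4.33 FPKM under sh-LNMAT1#2. UM-UC-3 sh-NC was highest and the library labelled 5637 sh-NC lowest, and the hairpin libraries of the lines overlapped. The log2 differences were -1.29 and -0.29 against sh-NC in UM-UC-3 and 0.47 and 0.76 against the library labelled 5637 sh-NC.

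OSMR (ENSG00000145623, chromosome 5 from 38845858 to 38945596) encodes the chain that pairs with gp130 for oncostatin M. In UM-UC-3, OSMR stood at 37.7 FPKM under sh-NC, 60.6 FPKM under sh-LNMAT1#1 and 44.0 FPKM under sh-LNMAT1#2. The library labelled 5637 sh-NC held 45.1 FPKM, 5637 sh-LNMAT1#1 held 21.1 FPKM and 5637 sh-LNMAT1#2 held 40.0 FPKM. OSMR was the most abundant of the 4 receptor chains in every library. Per length, it was at 21.2 to 61.4 times the LIFR level (at most 38.5 times without 5637 sh-LNMAT1#2). It was at 3.97 to 19.2 times the IL6ST level (at most 16.9 times without the library labelled 5637 sh-NC). The log2 differences were 0.68 and 0.22 against sh-NC in UM-UC-3 and -1.08 and -0.17 against the library labelled 5637 sh-NC.

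STAT3 (ENSG00000168610, chromosome 17 from 42313324 to 42388568) encodes the transcription factor that gp130 activates. In UM-UC-3, STAT3 stood at 8.69 FPKM under sh-NC, 6.56 FPKM under sh-LNMAT1#1 and 7.25 FPKM under sh-LNMAT1#2. In 5637, 6.55 FPKM was the level in the library labelled 5637 sh-NC, against 17.2 FPKM under sh-LNMAT1#1 and 10.5 FPKM under sh-LNMAT1#2. The 5637 hairpin libraries were above the other 4, which lay within 6.55 to 8.69 FPKM. The log2 differences were -0.38 and -0.25 against sh-NC in UM-UC-3 and 1.33 and 0.64 against the library labelled 5637 sh-NC.

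SOCS3 (ENSG00000184557, chromosome 17 from 78356778 to 78360077) encodes an inhibitor that STAT3 induces and that acts on gp130. In UM-UC-3, SOCS3 stood at 5.58 FPKM under sh-NC, 11.9 FPKM under sh-LNMAT1#1 and 8.10 FPKM under sh-LNMAT1#2. The library labelled 5637 sh-NC held 12.2 FPKM, 5637 sh-LNMAT1#1 held 5.00 FPKM and 5637 sh-LNMAT1#2 held 9.84 FPKM. The lines overlapped, and the highest and lowest levels lay within 2.44-fold (2.39-fold without the library labelled 5637 sh-NC). The log2 differences were 1.03 and 0.50 against sh-NC in UM-UC-3 and -1.21 and -0.30 against the library labelled 5637 sh-NC.

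**Figure D2:**
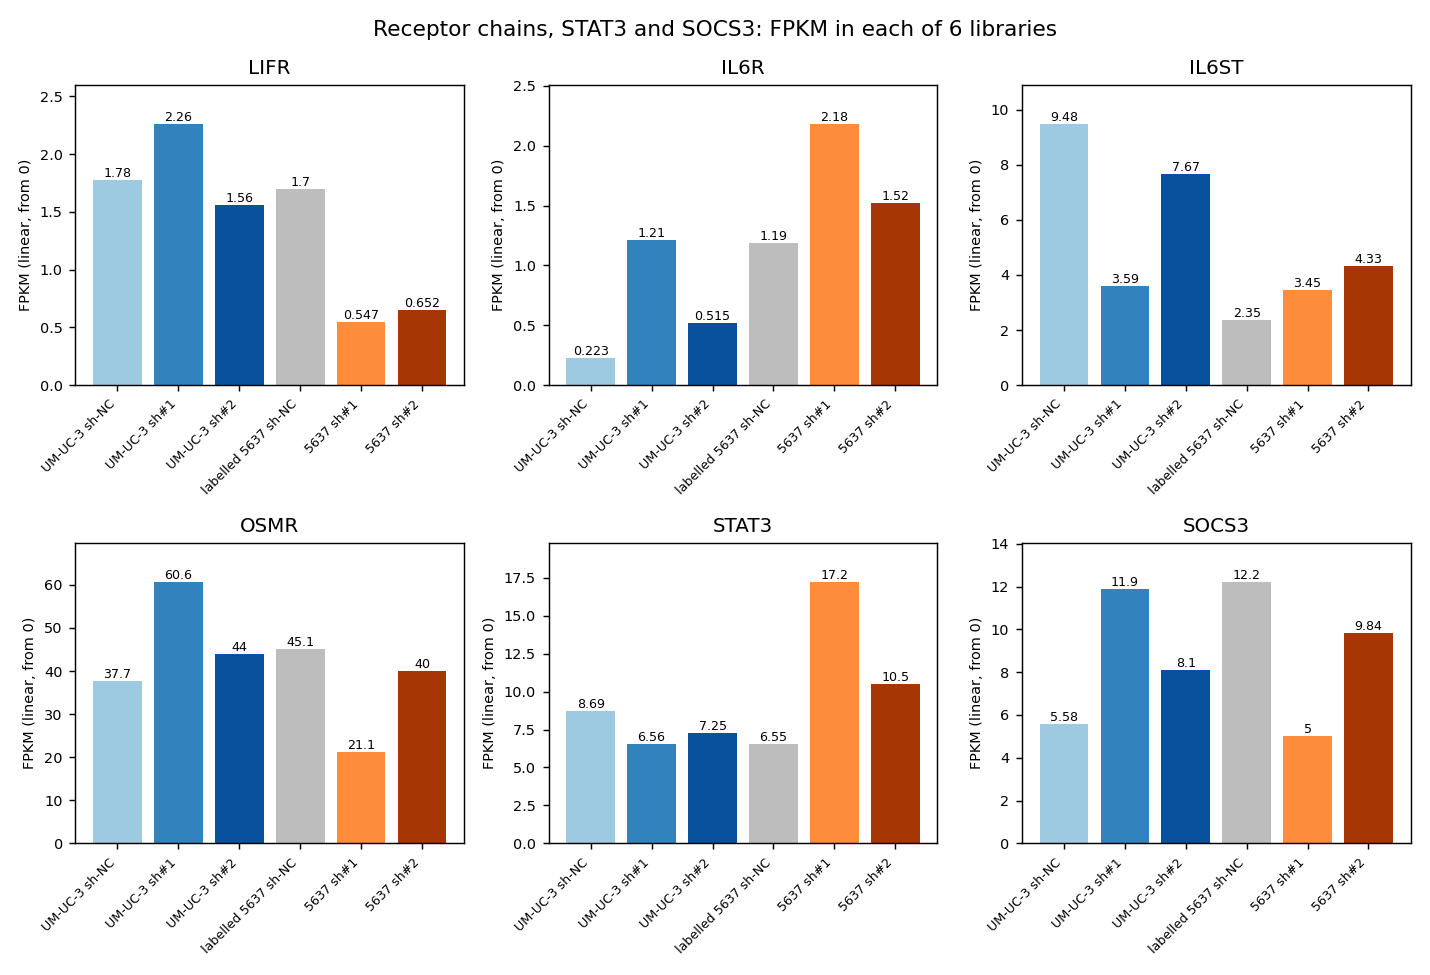
FPKM (linear axis from 0, scaled to each gene) of the 4 receptor chains, STAT3 and SOCS3, 1 bar for each of the 6 libraries and no error bars. STAT3 was 17.2 and 10.5 FPKM in the 5637 hairpin libraries and 6.55 to 8.69 FPKM in the other 4, while LIFR was lowest in those same 5637 libraries.

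In UM-UC-3, sh-LNMAT1#1 set more of the 9 genes apart from the control than sh-LNMAT1#2. With sh-LNMAT1#1, LIF, IL11 and SOCS3 were at least 2-fold higher and IL6ST at least 2-fold lower, 4 of the 7 kept genes, beside 10.9% of all 12025 kept genes past 2-fold in either direction. With sh-LNMAT1#2, 1 of 7, IL11, was past 2-fold, beside 3.51% of all kept genes. LIF and IL11 were chosen by these contrasts, so their share in the counts is not a finding, and the comparisons share the control library.

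In 5637, against the library labelled sh-NC, sh-LNMAT1#1 had STAT3 at least 2-fold higher and LIF, IL11, OSMR and SOCS3 at least 2-fold lower, 5 of 7 kept genes beside 36.8% of all 12791 kept genes. With sh-LNMAT1#2, LIF and IL11 were at least 2-fold lower, 2 of 7 beside 35.2% of all kept genes, and the count was 4 at a threshold of 1.5-fold, beside 57.2%. Over the 9 genes, the library labelled 5637 sh-NC differed from UM-UC-3 sh-LNMAT1#1 by a root mean square log2 distance of 0.28. The distance was 0.94 from UM-UC-3 sh-LNMAT1#2, 1.47 from UM-UC-3 sh-NC, 1.09 from 5637 sh-LNMAT1#2 and 1.87 from 5637 sh-LNMAT1#1. Relative to UM-UC-3 sh-LNMAT1#1, the 9 genes in that library ran from -0.52 (IL6ST) and -0.42 (OSMR) to 0.17 (IL11) and 0.28 (LIF) on the log2 scale.

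The hairpins were also compared with each other, with the controls used only in the filter, again as a description, since these values were known when the genes were chosen. In 5637, LIF was 1.08 and IL11 2.02 higher on the log2 scale with sh-LNMAT1#2 than with sh-LNMAT1#1, 2 of 7 kept genes past 2-fold beside 2.01% of all kept genes. OSMR and SOCS3 were each 0.91 higher and STAT3 differed by -0.68. Ranked among the 12791 kept genes of that comparison, LIF lay at percentile 99.1, IL11 at 99.9, OSMR and SOCS3 at 98.5 and STAT3 at 3.1. At a threshold of 1.5-fold the count was 5 of 7, beside 9.15% of all kept genes. In UM-UC-3, the same contrast was -1.79 for IL11, -0.70 for LIF, -0.53 for SOCS3, -0.46 for OSMR and 1.00 for IL6ST. IL11 alone of 7 was past 2-fold there, beside 8.79% of all kept genes, and IL6ST was just short before rounding, so that the count was 2 with a pseudocount of 0.1 and 3 at a threshold of 1.5-fold, beside 27%. With the filter over the 2 hairpin libraries alone, chosen after seeing the data, the counts past 2-fold were unchanged, beside 2.17% of 12472 genes in 5637 and 9.07% of 12083 in UM-UC-3. LIF, IL11, OSMR and SOCS3 were thus higher with sh-LNMAT1#1 than with #2 in UM-UC-3 and lower in 5637, a difference between the lines that was not tested.

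**Figure D3:**
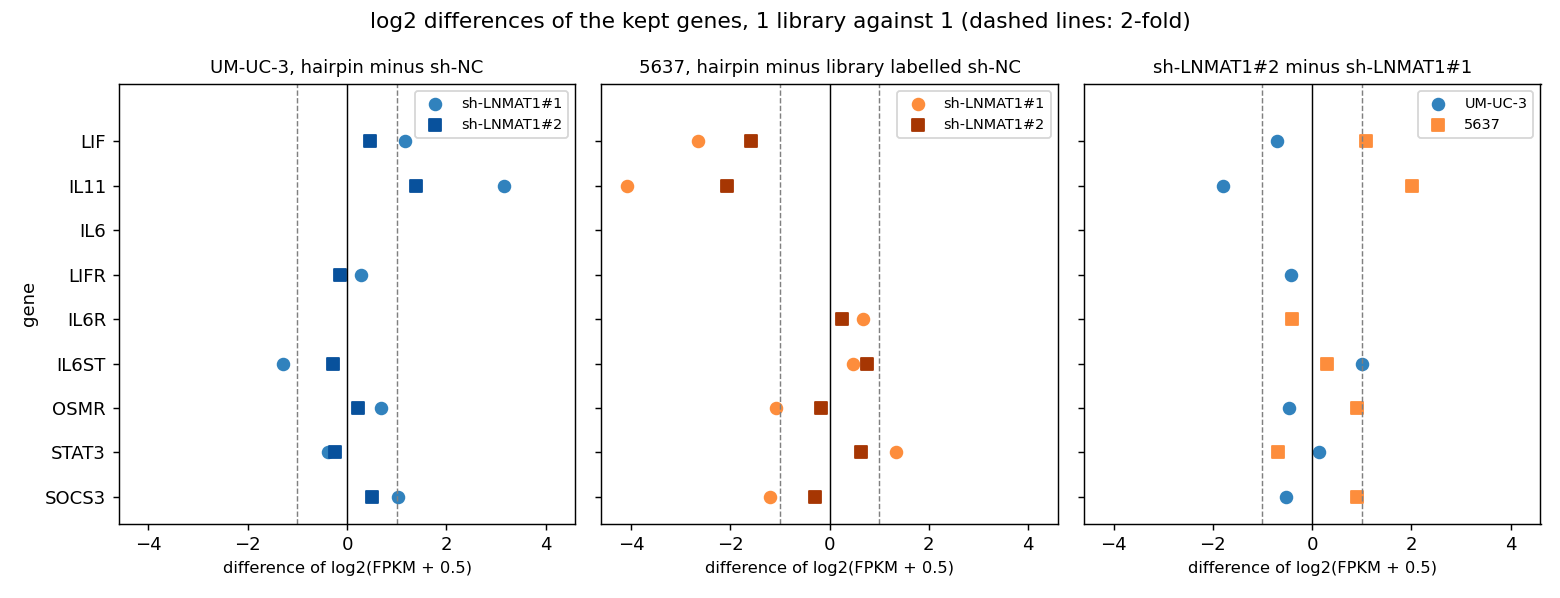
Differences of log2(FPKM + 0.5) for the genes kept in each line, 1 library against 1, in UM-UC-3 (left), in 5637 against the library labelled sh-NC (middle) and between the hairpins (right), with dashed lines at 2-fold. LIF, IL11, OSMR and SOCS3 lie right of 0 in the left panel and left of 0 in the middle panel, and IL6ST and STAT3 lie the other way.

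The fit over both lines asked whether any gene moved with the hairpins in common. With 4 sh-LNMAT1 libraries against UM-UC-3 sh-NC and the library labelled 5637 sh-NC, and the cell line as a covariate, limma called 0 of 12717 genes at an adjusted p of 0.05, while an unadjusted p under 0.05 was found for 811 genes. The covariate counts the library labelled 5637 sh-NC as 5637. Its r was 0.985 with UM-UC-3 sh-LNMAT1#1 but 0.617 and 0.622 with the 5637 hairpin libraries. Differences between the lines can thus enter the residual error, so 0 calls cannot show that no gene moved. The 9 genes are not read from this fit, since it tests the contrast that they were chosen by. LINC01296 had -1.40 (standard error 0.35), lower in 4 of 4, and its limma adjusted p was 0.569. Without the library labelled 5637 sh-NC the fit again called 0 genes, and without UM-UC-3 sh-NC, which left the library labelled 5637 sh-NC as the single control, it called 4025.

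Between the lines, the 4 sh-LNMAT1 libraries were compared without the library labelled 5637 sh-NC. LIF was lower in 5637 (means of 29.8 and 81.6 FPKM in the 5637 and UM-UC-3 sh-LNMAT1 libraries, a log2 difference of -1.49), with gaps between the hairpins of 1.08 in 5637 and 0.70 in UM-UC-3. The IL11 difference of -2.00 was no larger than its hairpin gap of 2.02 in 5637, and its range overlapped once UM-UC-3 sh-NC was included. Like that of LIF, the differences of IL6 (1.10), LIFR (-1.12), IL6R (0.82) and STAT3 (0.92) were beyond both hairpin gaps, and the 5637 sh-LNMAT1 libraries did not overlap any of the 3 UM-UC-3 libraries. LIFR and IL6R reached the filter only through the line where they were high and had to differ, so they are left out of the count. Of the 10476 genes with at least 1 FPKM on average in each line, 52.3% met both conditions, so this separation is common between the lines. The size for IL6, near the floor in UM-UC-3, depends on the pseudocount. OSMR differed by -0.82, under its hairpin gap of 0.91 in 5637, and IL6ST (-0.40) and SOCS3 (-0.46) overlapped.

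The other genes of the pathway were taken as 5 lists of 62 genes, of which 44 had a mean of at least 1 FPKM over the 4 sh-LNMAT1 libraries. In limma, 12 were higher in 5637 and 10 lower at an adjusted p under 0.05, 27.3% and 22.7% beside 20.1% and 18.4% of all 12844 genes tested. The median log2 difference of the 44 was -0.16 and that of all genes -0.02. Genes went both ways, so these medians do not show how near the lists lay to the background. Of the 22 called, 6 were under 1 FPKM on average in one line and reached the filter through the other; their values are given below without a p-value. With at least 1 FPKM required in each line, a filter chosen after seeing the data, 7 of 38 were higher and 7 lower, 18.4% each, beside 12.1% and 13.4% of 10476 genes. The hairpins serve as the replicates of a line here, so the p-values measure the spread between libraries with different hairpins, and they cannot tell cell line from culture medium. Without 5637 sh-LNMAT1#1 or without #2, 3 or 2 of the pathway genes were called higher and 0 or 1 lower, with 1192 and 1221 genes called overall in place of 4949.

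Of 7 other gp130-family ligands 1 was tested, CLCF1, and it did not pass; it was 6.60 and 9.17 FPKM in 5637 sh-LNMAT1#1 and #2 and 11.8 and 8.90 FPKM in those of UM-UC-3. OSM, the gene of the OSMR ligand oncostatin M, was at most 0.0151 FPKM in the 5637 sh-LNMAT1 libraries, at most 0.325 FPKM in UM-UC-3 and highest, at 0.407 FPKM, in the library labelled 5637 sh-NC. Of 4 other receptor chains 1, IL27RA, was at 1 FPKM or more in each line, and IL31RA reached the filter through UM-UC-3. IL31RA, which pairs with OSMR for interleukin 31, was 0.496 and 0.387 FPKM in 5637 sh-LNMAT1#1 and #2 and 4.81 and 14.0 FPKM in those of UM-UC-3, a log2 difference of -3.22 that ran from -3.95 to -2.69 with pseudocounts of 0.1 and 1 and from -3.94 to -2.50 without either UM-UC-3 library. IL27RA, which pairs with gp130 for interleukin 27, was lower in 5637 at a log2 difference of -1.60 (limma adjusted p = 0.00857). IL11RA, the chain that IL11 binds, was not tested, with means of 0.566 FPKM in 5637 and 0.811 FPKM in UM-UC-3.

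Of 12 kinases, adaptors and other STATs, 8 were at 1 FPKM or more in each line, and in the fit with that filter 1 was higher and 2 lower, beside 12.1% and 13.4% of all genes. STAT5A, a STAT of prolactin and cytokine receptors, was 2.25 and 2.72 FPKM in 5637 sh-LNMAT1#1 and #2 and 0.220 and 0.295 FPKM in those of UM-UC-3, a log2 difference of 1.98 whose size depends on the pseudocount. TYK2, a kinase bound to gp130, was higher by 1.21 (limma adjusted p = 0.0129), and the receptor-bound kinase JAK2 differed by -1.35 (limma adjusted p = 0.0055). These p-values, like those of IL27RA, SOCS1 and ADAM17, are from the fit over all 12844 genes, not from the fit with the filter in each line. Of 16 inhibitors and receptor sheddases, 13 met the same filter, 2 higher and 1 lower beside the same shares. PTPN6, the phosphatase SHP-1, had means of 2.36 FPKM in 5637 and 0.0165 FPKM in UM-UC-3, a log2 difference of 2.46 whose size depends on the pseudocount. SOCS1, a JAK inhibitor, was higher by 1.24 (limma adjusted p = 0.00757), and ADAM17, which sheds IL6R from the cell surface, was lower, with means of 14.6 FPKM in 5637 and 29.6 FPKM in UM-UC-3 (limma adjusted p = 0.011).

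Of 23 known STAT3 target genes, 15 met the same filter, 4 higher and 3 lower in 5637 beside the same shares. SAA1, an acute-phase protein, was 55.0 and 66.1 FPKM in 5637 sh-LNMAT1#1 and #2 and 0.0320 and 0.124 FPKM in those of UM-UC-3, a log2 difference of 6.72. SAA2 differed by 4.02, with means of 7.71 and 0.00718 FPKM, so both sizes depend on the pseudocount. SAA1 and SAA2 are near-identical paralogs whose reads can be split by the counting, and each level is uncertain. BCL6, a transcriptional repressor, had means of 0.910 FPKM in 5637 and 6.25 FPKM in UM-UC-3, a log2 difference of -2.14 that was -1.55 and -2.73 without UM-UC-3 sh-LNMAT1#1 and #2. The 5 named pathway genes with a p-value (IL27RA, TYK2, JAK2, SOCS1 and ADAM17) no longer passed without 5637 sh-LNMAT1#1 or without #2.

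**Figure D4:**
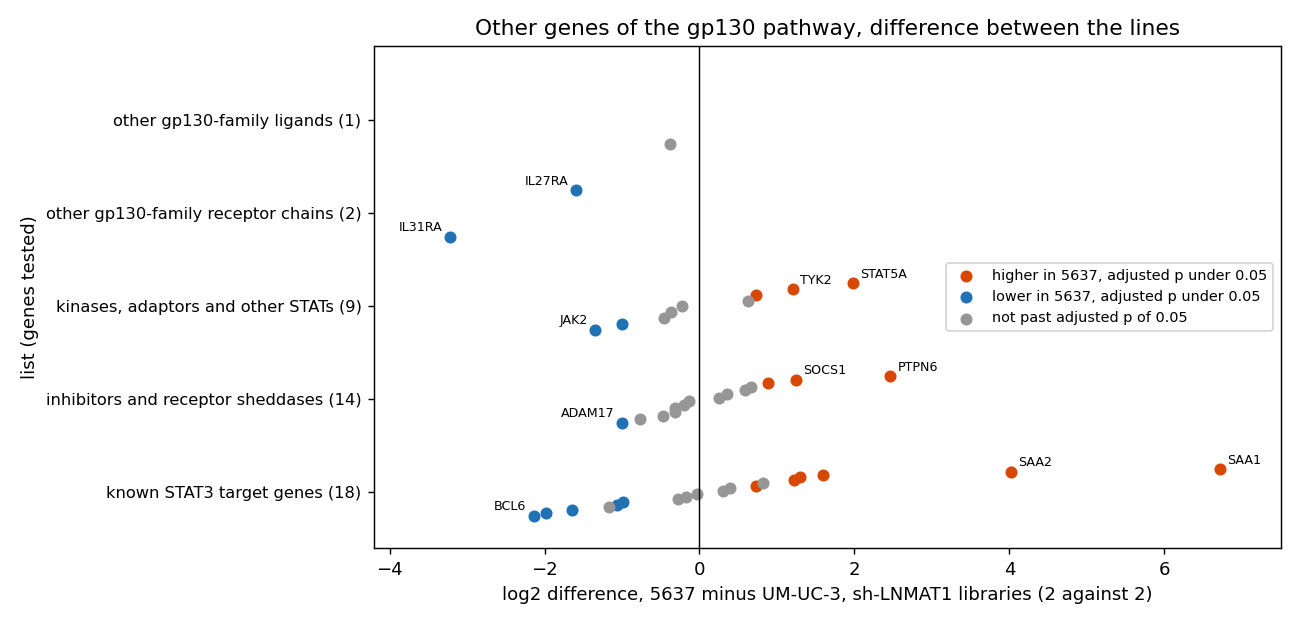
Log2 differences between 5637 and UM-UC-3 sh-LNMAT1 libraries (2 against 2) for the 44 tested genes of the 5 lists, 1 point a gene, colored by the limma call and named for up to 3 called genes a list. The calls lie on both sides of 0 in the list of STAT3 targets, with SAA1 at 6.72 and BCL6 at -2.14, 2 of the 6 genes that reached the filter through one line.

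Within UM-UC-3, the same lists had 7 of 40 kept genes past 2-fold with sh-LNMAT1#1 (17.5%, beside 10.9% of all kept genes). Named after their values were seen, these were VEGFA, ZFP36, BCL6, TIMP1 and PTPN11, higher by 1.82, 1.40, 1.39, 1.22 and 1.04 on the log2 scale, and BIRC5 and STAT2, at -1.37 and -1.08. With sh-LNMAT1#2, 1 of 40, MCL1, was past 2-fold at -1.26 (2.5%, beside 3.51%). Between the hairpins, 4 of 40 were past 2-fold in UM-UC-3 (10%, beside 8.79%), namely IL31RA, BIRC5, TIMP1 and BCL6. In 5637, BCL2L1, GRB2 and CCND1 were higher by 1.75, 1.11 and 1.10 with sh-LNMAT1#2 than with #1, 3 of 44 (6.82%, beside 2.01%). Against the library labelled 5637 sh-NC, 24 of 44 were past 2-fold with sh-LNMAT1#1 (54.5%, beside 36.8%) and 21 of 44 with #2 (47.7%, beside 35.2%). Each of these counts compares single libraries.

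The genes whose levels over the 6 libraries were most like those of LIF were REEP5, PM20D2 and TMEM150A, at root mean square distances of 0.13, 0.21 and 0.23 between centred log2 profiles, among 11598 genes with a median distance of 0.94. REEP5, a protein that shapes the endoplasmic reticulum, measured 8.82, 25.5 and 12.7 FPKM for UM-UC-3 sh-NC, #1 and #2, 24.7 for the library labelled 5637 sh-NC, and 3.49 and 9.62 for 5637 sh-LNMAT1#1 and #2. For IL11 they were TM4SF1, SERPINB7 and CGB8, at 0.56, 0.59 and 0.62. CGB8 belongs to a family of near-identical genes and its level is uncertain. LIF was at rank 8 for IL11, at a distance of 0.73, while IL11 was at rank 2790 for LIF, beside median distances of 1.54 and 0.94. TM4SF1, a membrane protein of the tetraspanin-like family, measured 28.1, 114 and 40.7 FPKM for UM-UC-3 sh-NC, #1 and #2, 153 for the library labelled 5637 sh-NC, and 7.71 and 17.8 for 5637 sh-LNMAT1#1 and #2.

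By position, 5 of the 9 genes share exon bases with a gene on the opposite strand in GENCODE 29. The library kit keeps strand, but whether the counting used it is not given in the sources used here, so reads of such pairs cannot be told apart. LIF shares 175 of its 3969 exon bases with AC004264.1, which measured 3.01, 7.41 and 4.66 FPKM for UM-UC-3 sh-NC, #1 and #2, 9.09 for the library labelled 5637 sh-NC, and 1.33 and 3.45 for 5637 sh-LNMAT1#1 and #2, highest in the same 2 libraries as LIF and lowest in the same one. LIF also shares 92 bases with LIF-AS1, at most 0.111 FPKM. OSMR shares 229 of 7174 bases with RICTOR, which stayed between 3.15 and 5.90 FPKM. IL6, at under 1 FPKM, shares 428 of 2069 bases with AC073072.1, at most 0.0352 FPKM, and 46 with STEAP1B, which was 5.09 to 7.70 FPKM in UM-UC-3 and the library labelled 5637 sh-NC but 0.208 and 0.255 FPKM in 5637 sh-LNMAT1#1 and #2. LIFR and IL6ST share bases with genes that were at most 0.204 FPKM in any library.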

How the data were processed

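RNA of UM-UC-3 and 5637 cells, 6 libraries in 6 groups by label, was sequenced from a stranded mRNA kit. The authors deposited FPKM per gene. The submitters' processing notes name HISAT2 and hg38; the counting program and annotation are not given in the sources used here. Of 50869 rows, 1 row without values was left out; 50110 identifiers were in GENCODE 29, 47483 at the identical position. Members and lists were chosen with earlier results of these data known; 2 genes of the lists are not reported here and were taken out before counting and naming.

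Depth was read from single-exon genes, whose FPKM times length were whole multiples of 1 fragment (tolerance 0.02) in at least 99.0% of values. Fragments of other genes were bounded by the shortest transcript and all exons; 3 fragments were the floor.

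Differences are of log2(FPKM + 0.5); a gene was kept where its mean reached 1 FPKM over the libraries fitted (a line's 3 libraries for single-library differences). limma 3.58.1 in R 4.3.3 (lmFit, eBayes with a trend, Benjamini-Hochberg) fitted the pooled comparison and the lines, and was tested on simulated data. Python 3.11.15, numpy 2.4.6, pandas 2.3.3 and matplotlib 3.10.9 did the rest. Genes named were the 9, LINC01296, the 3 with a symbol nearest in profile to LIF and to IL11, and up to 3 called genes a list by size. Also tried were pseudocounts of 0.1 and 1, scaling to the 75th percentile, filters of 5 FPKM and none, 1.5-fold, no trend, no covariate, a hairpin block, other library sets and each library left out. The comparison between hairpins, its alternatives, the filter in each line and that over 2 hairpin libraries were chosen after seeing the data.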

Additional observations from a re-analysis of the deposited data

Results flagged for a closer look

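For 6 of the 9 genes (8 of the 9 kept), both hairpin libraries lay on one side of sh-NC in UM-UC-3 and on the other side of the library labelled sh-NC in 5637, as they did for 36% of all 12717 kept genes. As the mean log2 change with the hairpins in 5637 minus that in UM-UC-3, the difference was -2.94 for LIF, -5.34 for IL11, -1.07 for OSMR and -1.52 for SOCS3, and 1.40 for IL6ST and 1.30 for STAT3. These differences between the lines were not tested, since the genes were chosen or added with these values known. In 5637 they rest on the library labelled 5637 sh-NC, which over the 9 genes lay at a root mean square log2 distance of 0.28 from UM-UC-3 sh-LNMAT1#1 and of 1.09 and 1.87 from 5637 sh-LNMAT1#2 and #1. LIF and IL11 were selected on this pattern.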

How the results depend on the processing

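For the kept genes among the 9, 126 log2 differences were recomputed, under 75th percentile scaling and pseudocounts of 0.1 and 1 in 6 comparisons. A pseudocount cannot turn the sign of a difference, so only the scaling could have done so. No sign changed with the scaling, which moved the median of all genes by at most 0.06 in size. The smallest of the differences was 0.13 (STAT3 between the hairpins in UM-UC-3), so a change of sign was hardly possible. The count of the 9 genes past 2-fold stayed within 1.5 times under these settings and both filters, except that it went from 1 to 2 between the hairpins in UM-UC-3 with a pseudocount of 0.1. At a threshold of 1.5-fold it was 4 in place of 2 with sh-LNMAT1#2 in 5637, 3 in place of 1 between the hairpins in UM-UC-3 and 5 in place of 2 between those of 5637. The pooled fit called 0 genes under each setting other than leaving out a library, where it called 0 to 4025, the latter without UM-UC-3 sh-NC, when the library labelled 5637 sh-NC was the single control; the cause was not tested. Between the lines, 4949 genes were called, 2325 with a filter of 5 FPKM, where 6326 rather than 12844 genes were tested, and 2 with all 6 libraries by their labels. With all 6 libraries, the pathway genes called higher went from 12 to 0 and those called lower from 10 to 0. Called lower were 10 of 44 pathway genes in the main fit, beside 2361 of all 12844 genes. With no filter they were 4 of 62, beside 2168 of 35185, and with a filter of 5 FPKM 6 of 29, beside 1200 of 6326. These counts thus moved with the set of genes tested. Leaving out 1 library gave 1192 to 5573 genes, 2 to 12 pathway genes higher and 0 to 13 lower, with the low counts without 5637 sh-LNMAT1#1 (1192, 3 and 0) and without #2 (1221, 2 and 1). The lone library was then assumed to vary like the other line's. With UM-UC-3 sh-NC added, 5466 genes were called, 13 and 9 of them pathway genes, and with the hairpin number as a block 5250, 13 and 11. With no filter, the 5 named pathway genes with a p-value still passed. BCL6 did not, but its passing is not read, since it reached the filter through UM-UC-3 alone. With at least 1 FPKM in each line, an added alternative, 2671 genes were called, 7 pathway genes higher and 7 lower. With a filter of 5 FPKM, fewer genes are kept, and the share of all kept genes past 2-fold is not given here. Past 2-fold against the library labelled 5637 sh-NC, the pathway genes went from 24 to 14 with sh-LNMAT1#1 and from 21 to 13 with #2. At 1.5-fold they went from 7 to 14 of 40 with sh-LNMAT1#1 (beside 30.5% of all kept genes) and from 1 to 10 of 40 with #2 (14.2%) in UM-UC-3, from 21 to 35 of 44 with #2 in 5637 (57.2%), and between the hairpins from 4 to 14 of 40 in UM-UC-3 (27%) and from 3 to 7 of 44 in 5637 (9.15%); no filter gave 2 in place of 1 with #2 in UM-UC-3. The block pairs libraries by hairpin number, which does not mark a shared culture. Depth limits IL6 most, where 2 libraries lie at 0 and 2 at or around 3 fragments.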
